A study of Mus musculus with 20 samples.

Results

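This comparison set isoflurane anesthesia against wakefulness in the hippocampus of APP/PS1 mice, the familial Alzheimer's disease (fAD) model of the study. Its members were the libraries whose labels give the APP/PS1 genotype together with isoflurane or wake: 4 labelled fAD-GA (general anesthesia, mice 4, 11, 15 and 20) and 3 labelled fAD-Awake (mice 2, 10 and 17), so 7 of the 20 libraries of the series, with 1 mouse per library. They held 60144 of the 160777 nuclei, of which 35295 came from fAD-GA and 24849 from fAD-Awake mice. The study's paper gives the reverse numbers, 4 fAD-Awake and 3 fAD-GA mice, and the labels were used here. The whole hippocampus was considered, by summing the RNA molecules, counted with unique molecular identifiers (UMIs), over all nuclei of a mouse. The mouse was thus the replicate. Levels are given as CPM, the UMIs of a gene scaled to an equal total in each mouse, that total being adjusted with TMM scaling factors.

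The fAD mice were male hemizygous carriers of APPSwe/PS1ΔE9, aged 4.5 to 5.5 months, on a C57BL/6J background. In this line both transgenes are expressed from the mouse prion protein promoter. GA mice received isoflurane at 5%, lowered to 1.5%, and tissue was taken after 3 h. Awake mice received no anesthetic that the labels name, and the circadian time of collection was the same. The most similar libraries, 3 labelled WT-GA and 6 labelled WT-Awake, came from male wild-type (WT) littermates of that age under the same 2 states, while 4 ketamine libraries were not used here. The libraries of the 7 fAD mice held 17552792 to 25394891 UMIs from 4743 to 10877 nuclei, and any pair of them shared 7 to 32 cell barcodes, at most 0.352% of the smaller library.

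The transgene cassette made Prnp, the prion protein gene, a check of the genotype labels. Its level was 413, 219 and 75.8 CPM in mice 2, 10 and 17 and 283, 68.8, 313 and 101 CPM in mice 4, 11, 15 and 20. Mice 11, 17 and 20 therefore lay within the 49.3 to 198 CPM of the mice labelled WT. The highest WT value, 198 CPM, was that of the WT-Awake mouse 14, and the next, 133 CPM, that of the WT-GA mouse 3. Across labels Prnp was higher in fAD mice on average (log2 difference of fAD from WT 1.14, standard error 0.40). It did not pass the edgeR test once p was adjusted over all genes tested (adjusted p = 0.9999). Groups are named as labelled, and results are also given without mice 11 and 17, or without mice 11, 17 and 20. Mice 1 to 4, 1 of each state and genotype, had 1.05%, 1.05%, 1.78% and 0.939% mitochondrial UMIs against 0.0363% to 0.336% in the other mice awake or under GA, so these 4 consecutive numbers stood apart together. Choroid plexus markers summed to 882, 1101 and 812 CPM in mice 2, 10 and 11 and to 12.4 to 94.9 CPM in the others.

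Neurons that fire strongly turn on immediate-early genes within minutes, through calcium entry, the kinase ERK and the transcription factors CREB and SRF. The first products are themselves transcription factors such as Fos, Egr1 and Npas4, which then raise effector genes that act at synapses. In the hippocampus these genes serve as a record of recent activity, and their nuclear transcripts turn over quickly. Isoflurane is a volatile anesthetic that strengthens inhibitory GABA-A receptors and opens leak potassium channels.

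Of 19895 genes tested with edgeR's quasi-likelihood test, 53 were higher under GA than awake in fAD mice (0.266% of genes tested) and 5 were lower (0.0251%), at a Benjamini-Hochberg adjusted p under 0.05. For all 58 genes, every GA mouse lay on the same side of every awake mouse, which their call from these same mice made likely in advance. Over all genes this separation was found for 1299 genes in the higher direction (6.53%) and for 727 in the lower direction (3.65%). The median log2 difference over all genes was -0.02, and 2388 genes had an unadjusted p under 0.05, 7.81% in the higher and 4.19% in the lower direction. The 5 lower genes were Arc, Npas4, Prag1, Dlx6os1 and Gcnt4, 2 of which are activity-dependent genes. In sums over a tissue, fewer cells of a type and less RNA per cell cannot be told apart.

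All 58 genes were also called by DESeq2, among 416 higher (2.09%) and 117 lower (0.589%), and with a block for consecutive mouse numbers, among 191 higher (0.96%) and 56 lower (0.281%). The calls rested on few mice, since no gene passed without mouse 2, 4, 10, 15 or 20, without the WT-GA mouse 18, which enters through the shared spread, without mice 1 to 4, or with the 7 fAD mice alone. Other single mice left 26 (without the WT-Awake mouse 13) to 86 genes (without mouse 11). Without mice 11 and 17, 96 genes passed, including 30 of the 58. Without mice 11, 17 and 20, 2 passed, including 1 of the 58 (Kcnv2). All 58 kept their direction in both of these fits and without mice 1 to 4. Since the groups of these genes did not overlap, that was all but fixed in advance.

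Promoters of 4 immediate-early and effector genes are shown because most of the lower values described next belong to this family, and because CREB sites are the textbook route from activity to these genes. They are the 4 members with the smallest adjusted p that had a RefSeq entry (GRCm38.p6), as the 250 bases before the start that RefSeq gives. The gene spans below are those of GENCODE on the same assembly, whose start differs for Npas4, so that this window lies inside the GENCODE gene, and the windows of Fosb and Pcsk1 reach partly into theirs. Capitals mark matches to TGACG (the core of the cyclic AMP response element, also read as its reverse complement), to the full element TGACGTCA, which contains TGACG on both strands, and to the Egr motif GCGGGGGCG.
Npas4, chr19:4989972-4990221, minus strand: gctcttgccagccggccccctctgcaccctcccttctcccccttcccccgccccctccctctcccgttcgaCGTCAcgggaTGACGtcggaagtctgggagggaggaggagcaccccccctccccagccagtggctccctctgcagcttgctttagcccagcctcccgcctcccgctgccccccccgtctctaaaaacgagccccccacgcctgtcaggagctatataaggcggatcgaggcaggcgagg
Fosb, chr7:19310046-19310295, minus strand: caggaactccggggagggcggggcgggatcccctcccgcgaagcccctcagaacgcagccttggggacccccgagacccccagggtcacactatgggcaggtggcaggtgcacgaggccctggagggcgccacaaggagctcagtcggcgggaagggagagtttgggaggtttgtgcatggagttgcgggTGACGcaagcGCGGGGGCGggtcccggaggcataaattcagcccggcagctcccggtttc
Egr4, chr6:85513590-85513839, minus strand: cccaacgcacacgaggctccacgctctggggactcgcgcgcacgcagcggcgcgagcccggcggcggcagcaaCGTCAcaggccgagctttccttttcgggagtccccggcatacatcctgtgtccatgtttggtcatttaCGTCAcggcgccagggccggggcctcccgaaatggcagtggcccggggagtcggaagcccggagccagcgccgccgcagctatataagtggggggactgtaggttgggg
Pcsk1, chr13:75089607-75089856, plus strand: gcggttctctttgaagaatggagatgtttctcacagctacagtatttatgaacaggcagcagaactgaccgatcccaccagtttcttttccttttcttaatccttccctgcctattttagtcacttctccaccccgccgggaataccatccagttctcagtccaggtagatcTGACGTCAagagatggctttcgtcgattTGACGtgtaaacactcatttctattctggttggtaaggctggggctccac

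Counted from the RefSeq start, the TGACG matches of Npas4 lay at -179 to -175 and -169 to -165, those of Egr4 at -177 to -173 and -109 to -105, and that of Fosb at -60 to -56, next to an Egr motif at -50 to -42. The full element of Pcsk1 lay at -78 to -71, with a further TGACG at -50 to -46. Of all 32841 promoters, 17.8% held TGACG, 1.55% TGACGTCA, 2.57% GCGGGGGCG and 1.47% a CArG box, the site of SRF. Counted per gene, as for the members, the shares were 19.8%, 1.77%, 2.93% and 1.62% of 27018 genes. Of the 48 members of the immediate-early and effector lists, 35 had an entry, and 23, 5, 4 and 1 of these held the respective motifs. A match is a string of letters and not a measured site.

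Arc, a postsynaptic protein that controls the removal of AMPA receptors, lies on chr15:74669083-74672570 of mm10 on the minus strand. It was at 15.7, 11.0 and 6.42 CPM in awake mice 2, 10 and 17 and at 1.74, 1.91, 1.64 and 0.96 CPM in GA mice 4, 11, 15 and 20. The groups did not overlap, and the awake mean was 7.07 times the GA mean. The difference was -2.82 on the log2 scale with a standard error of 0.39 (adjusted p = 0.0307), -3.20 without mice 11 and 17 (adjusted p = 0.0129) and -2.97 without mice 11, 17 and 20 (adjusted p = 0.0637).

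Npas4, a neuron-restricted transcription factor that follows calcium entry (chr19:4984355-4990316, minus strand), was at 5.23, 5.72 and 8.07 CPM awake and at 1.39, 1.60, 2.63 and 1.55 CPM under GA. Every GA mouse was below every awake mouse. Its log2 difference was -1.82 ± 0.30 (SE, adjusted p = 0.0307), and -1.57 (adjusted p = 0.0658) without mice 11 and 17.

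Prag1, a pseudokinase, was at 24.8, 26.2 and 27.5 CPM awake and at 15.9, 13.7, 16.2 and 16.2 CPM under GA. The mice of each state lay close together, and the difference was small, with a log2 value of -0.76 ± 0.13 (adjusted p = 0.0307). Dlx6os1, an RNA transcribed antisense to Dlx6 and a marker of inhibitory neurons, was at 37.4, 32.7 and 38.6 CPM awake and at 12.5, 16.2, 15.1 and 19.3 CPM under GA, so every GA mouse was below every awake mouse (log2 difference -1.20 ± 0.21, adjusted p = 0.0307). Gcnt4, which branches O-linked glycans, was at 3.36, 3.97 and 2.31 CPM awake and at 1.11, 1.11, 0.821 and 0.548 CPM under GA (log2 difference -1.84 ± 0.34, adjusted p = 0.0412). Without mice 11 and 17, Gcnt4 passed (adjusted p = 0.0385), while Prag1 (0.0700) and Dlx6os1 (0.0641) did not.

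**Figure D1:**
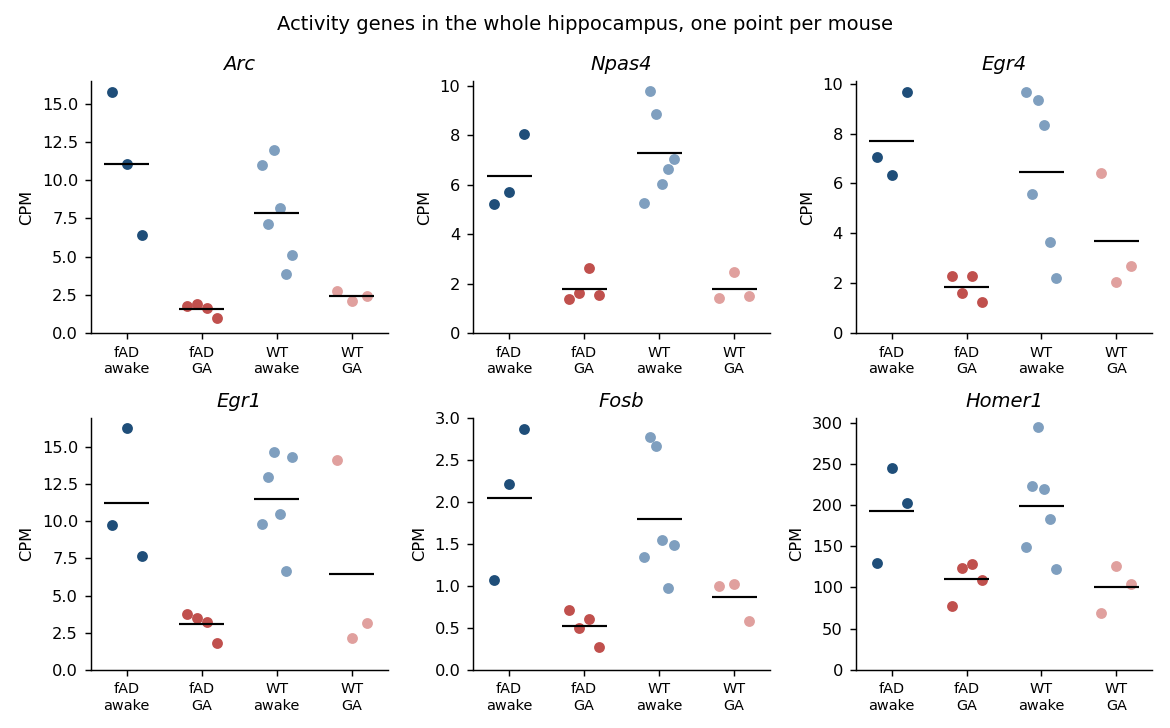
Level in whole-hippocampus sums (CPM, vertical axes, each from 0) of Arc, Npas4, Egr4, Egr1, Fosb and Homer1, with 1 point per mouse in the fAD-Awake, fAD-GA, WT-Awake and WT-GA groups and a line at each mean. In all 6 panels the 4 fAD-GA points lie below the 3 fAD-Awake points.

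Most immediate-early transcription factors were below 0, although few passed a test. Of the 20 members tested, 18 were below 0, 6 had all GA mice below all awake mice (background 3.65%), and 10 had an unadjusted p under 0.05 in the lower direction (background 4.19%). Only Npas4 passed the adjusted threshold. The list's median log2 difference was -0.80 beside -0.02 over all genes, and -0.73 without mice 11 and 17.

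Egr4, a zinc-finger factor of the Egr family, was at 7.05, 6.35 and 9.66 CPM awake and at 2.30, 1.60, 2.30 and 1.23 CPM under GA, with a log2 difference of -2.04 ± 0.48 (adjusted p = 0.0793, or 0.0241 with the number block). Fosb, a partner of Jun in AP-1 dimers, was at 1.07, 2.21 and 2.88 CPM awake and at 0.714, 0.493, 0.602 and 0.274 CPM under GA (-1.96 ± 0.44, adjusted p = 0.0698, or 0.0399 with the block). In both genes the groups did not overlap. Egr1, the most widely used of the Egr markers, was at 9.77, 16.3 and 7.66 CPM awake and at 3.73, 3.51, 3.23 and 1.78 CPM under GA, again without overlap (-1.87 ± 0.51, adjusted p = 0.12).

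Fos itself was carried by 1 awake mouse. It was at 4.48, 16.5 and 4.11 CPM in mice 2, 10 and 17 and at 2.93, 3.39, 0.493 and 0.503 CPM in mice 4, 11, 15 and 20. Its difference of -2.20 had a standard error of 0.98 (adjusted p = 0.378), although the groups did not overlap. Egr2, at most 1.04 CPM in any mouse, was the sixth member without overlap (log2 difference -1.63).

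Other members were less separated. Nr4a1, Nr4a2 and Nr4a3, orphan nuclear receptors, had differences of -0.63, -0.79 and -0.98, Fosl2 and Junb both of -0.80, and Egr3, Ier2 and Ier5 of -0.54, -0.89 and -0.55. Over the alternative fits, Junb was at -1.19 to -0.37, Egr3 at -0.73 to -0.11, Ier2 at -1.71 to -0.36 and Ier5 at -1.21 to -0.03. Jun (-0.23), Jund (-0.25) and Crem (-0.01) were close to 0, and the sign of each turned when single mice or mice 11, 17 and 20 were left out. Maff (0.88) and Atf3 (0.33) were above 0. Among the GA mice, mouse 4 was highest in Atf3, Crem, Egr1, Egr4, Fosb, Ier2, Jun, Junb, Jund, Klf4 and Maff, and mouse 20 was lowest in Crem, Egr1, Egr3, Egr4, Fosb, Ier2, Ier5, Jun, Junb and Jund.

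Among the 28 activity-induced effectors, 22 were below 0, with a median log2 difference of -0.40. An unadjusted p under 0.05 in the lower direction was found for 8 (background 4.19%). All GA mice were below all awake mice in 7 (background 3.65%). Arc alone was called. Homer1, whose short inducible form uncouples postsynaptic scaffolds, was at 130, 246 and 203 CPM awake and at 77.8, 123, 129 and 109 CPM under GA. Its lowest awake mouse was barely above its highest GA mouse (-0.81 ± 0.29, adjusted p = 0.244, or 0.0172 with the block).

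Pcsk1, the protease that cuts neuropeptide precursors, was at 22.2, 35.3 and 15.2 CPM awake and at 8.96, 10.0, 13.4 and 8.18 CPM under GA (-1.26 ± 0.37, adjusted p = 0.141). Sik1, a kinase that restrains CREB coactivators (-1.21), Baz1a, a chromatin remodelling subunit (-1.02), and Tll1, a metalloprotease (-0.70), had no overlap either, nor had the GTPase gene Rheb (-0.32). None of these 5 passed in edgeR, with or without the block, while DESeq2 called Sik1, Baz1a and Pcsk1 (adjusted p = 0.00865, 0.0414 and 0.0434). Bdnf, the neurotrophin, was at 42.7, 42.2 and 65.3 CPM awake and 29.9, 40.9, 65.2 and 36.1 CPM under GA, a log2 difference of -0.22 that was 0.02 without mouse 17. Inhba, an activin subunit, had 163 CPM in GA mouse 20 and 27.9 to 61.1 CPM in the other fAD mice (0.87 ± 0.49, adjusted p = 0.52).

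Of the 17 genes that report ERK signalling, mostly feedback inhibitors of the pathway, 16 were below 0, with a median of -0.57. Of these, 7 had an unadjusted p under 0.05 in the lower direction (background 4.19%). All GA mice were below all awake mice in 6 (background 3.65%), and 0 were called. With the block, Etv5, Dusp5 and Spred1 passed. Etv5, an ETS factor downstream of ERK, was at 46.1, 56.2 and 47.5 CPM awake and 19.3, 28.3, 32.1 and 33.0 CPM under GA (-0.83 ± 0.20, adjusted p = 0.0806, block 0.0172). Dusp5, a nuclear ERK phosphatase, was at 5.71, 6.56 and 4.37 CPM awake and 1.31, 2.84, 0.767 and 2.19 CPM under GA (-1.65 ± 0.39, adjusted p = 0.0793, block 0.0344). Both genes were separated between the states. Spry4 (-1.09), Spred2 (-0.57) and Dusp6 (-0.80), further inhibitors of the pathway, were also without overlap.

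**Figure D2:**
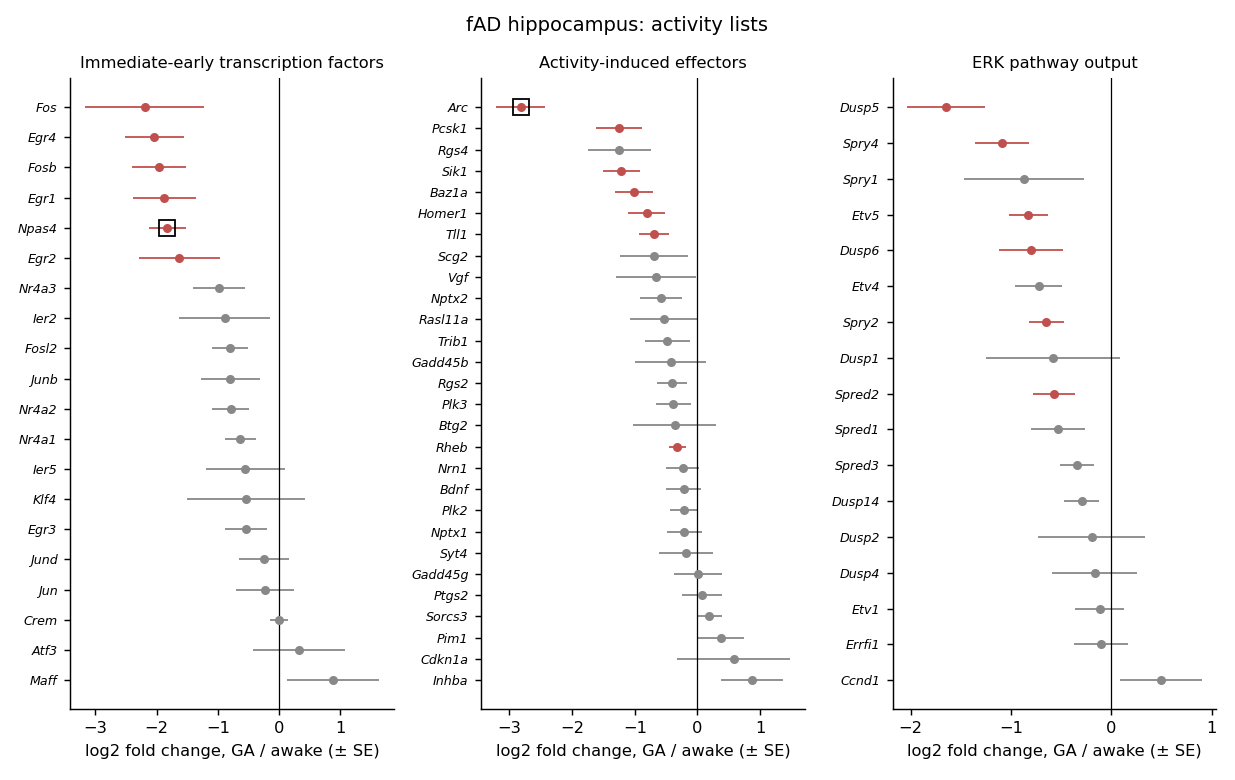
Log2 difference of GA from awake in fAD mice (horizontal axis) with its standard error for each member of the immediate-early, effector and ERK output lists. Red points are genes whose 4 GA mice were all below the 3 awake mice, grey points overlap, and black squares mark the 2 genes with an adjusted p under 0.05, Npas4 and Arc.

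Beyond these lists, Grm3, Pde4b, P4ha1 and Plin4 missed the threshold and passed it with the block. Grm3, a metabotropic glutamate receptor found on astrocytes and neurons, was at 239, 328 and 203 CPM awake and at 145, 163, 142 and 145 CPM under GA (-0.79 ± 0.16, adjusted p = 0.0506, or 0.0349 without mice 11 and 17). Pde4b, which degrades cyclic AMP, was at 753, 709 and 737 CPM awake and at 387, 526, 430 and 461 CPM under GA (-0.70 ± 0.16, adjusted p = 0.0685). P4ha1, a subunit of collagen prolyl hydroxylase, was at 170, 130 and 203 CPM awake and at 64.9, 83.1, 111 and 80.4 CPM under GA (-0.98 ± 0.23, adjusted p = 0.0736). In these 3 genes the groups did not overlap. The lipid droplet coat gene Plin4 was above 0, with 2.08, 1.50 and 3.08 CPM awake against 5.95, 4.44, 9.31 and 10.6 CPM under GA (1.77 ± 0.47, adjusted p = 0.112). Grm3 and P4ha1 were chosen after their values were seen.

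No member of the remaining lists was called by edgeR without the block, and with it Pde4b and Plin4 alone were. Their medians were -0.16 for the circadian clock, -0.02 for the glucocorticoid response, -0.34 for heat shock and chaperones, -0.34 for the unfolded protein response and -0.36 for hypoxia and glycolysis. The targets of the anesthetic itself lay near the median of all genes, with -0.09 for GABA-A receptor subunits, 0.03 for ionotropic glutamate receptor subunits and -0.13 for leak potassium and HCN channels. Values were -0.11 for phosphodiesterases, 0.00 for MAST kinases, -0.66 for neuropeptide precursors, -0.30 for plaque-associated microglial genes, -0.06 for reactive glia, -0.22 for the amyloid precursor family and secretases and -0.15 for insulin signalling. The reactive glia median was -0.59 without mice 11 and 17, and that of neuropeptide precursors was -0.36 with the block. Ribosomal protein genes (-0.32), nuclear-coded oxidative phosphorylation genes (-0.34) and mitochondrially encoded genes (-0.94) were below 0 in fAD, and their WT medians were 0.09, 0.44 and 1.33. These fAD medians moved to -0.93, -0.70 and -1.10 without mice 11 and 17. They were -0.12, -0.13 and -1.23 with the block, and -0.39, -0.44 and -1.71 without mice 1 to 4. The clock gene Per2, chosen after its values were seen, had no overlap, at 37.6, 34.4 and 31.4 CPM awake and 21.4, 20.0, 25.6 and 24.7 CPM under GA (-0.59, adjusted p = 0.232).

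The 53 genes called higher under GA were of another kind, often scarce transcripts. Of these, 31 carry provisional Gm or Rik names and 22 are protein coding (41.5% against 78.3% of all genes tested). Their median level in WT mice was 2.55 CPM, beside 10.9 CPM over all genes tested. The WT mice entered their choice through the filter, scaling and shared spread of the fit, though not through the contrast. In WT mice, 5, 4 and 13 of the 53 genes lay under 0.5, at 0.5 to 1 and at 1 to 2 CPM. In the fAD mice the median was 1.17 CPM awake, where genes called higher are low by selection, and 4.50 CPM under GA. The median log2 difference was 1.91.

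Kcnv2, a potassium channel subunit that does not conduct on its own but modifies Kv2 channels, was at 0.534, 0.292 and 1.13 CPM awake and at 5.11, 2.53, 3.89 and 5.30 CPM under GA, or 7 to 22 UMIs against 41 to 129 UMIs per mouse. Every GA mouse had more than the highest awake mouse (2.70 ± 0.43, adjusted p = 0.0307). It was the one gene of the 58 still called without mice 11, 17 and 20 (3.45, adjusted p = 0.0464). The long noncoding RNA Gm44626 was at 1.28, 1.30 and 1.80 CPM awake and at 13.7, 6.66, 5.69 and 11.6 CPM under GA (2.69 ± 0.43), and the antisense RNA Gm38825 was at 2.67, 1.96 and 2.67 CPM awake and 9.36, 5.98, 7.56 and 11.2 CPM under GA (1.81 ± 0.27). These RNAs too were separated between the states. Gm44626 overlaps a gene on its own strand, so its UMIs could in part be shared.

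The other 12 genes with the smallest p were Gm34022 (1.92), Gm16287 (2.31), Gm31452 (2.09), Gm34354 (1.89), Gm41409 (1.64), Gm36640 (1.75), Gm49736 (2.58), Gm34672, the kinase gene Sbk3 (1.98), the kallikrein-related peptidase gene Klk13 (2.81), the lectin gene Clec4g and the vomeronasal receptor gene Vmn2r56 (2.19), each with an adjusted p of 0.0307. Clec4g had 2 UMIs in each awake mouse and 34, 14, 27 and 79 UMIs in mice 4, 11, 15 and 20. Gm34672 had 3, 1 and 1 UMIs awake and 28, 6, 30 and 27 UMIs under GA. At such awake counts no fold is given.

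Scarce genes also had medians above 0 over the whole table. Genes of 0.5 to 1 CPM in WT mice had a median log2 difference of 0.31 in fAD, and those of 1 to 2 CPM and 2 to 5 CPM had 0.20 and 0.06. Above 5 CPM the fAD bin medians were between -0.09 and -0.05. In WT mice the bins from 0.5 to 20 CPM had medians of 0.12, 0.11, 0.10, 0.10 and 0.06. Those above 20 CPM had -0.0006, -0.10 and -0.21. Of the 1797 genes of 0.5 to 1 CPM, 1791 passed the filter on low counts. Under 0.5 CPM, 1204 of 9459 genes passed, and since the fAD mice themselves help to decide which pass, no median is given for that level. Within pairs of mice of neighbouring numbers, the median log2 ratio of the tested genes of 0.5 to 1 CPM was 0.25 (mouse 4 over 2), 0.16 (mouse 11 over 10) and 0.16 (mouse 15 over 17). Whether the called rare genes changed apart from this shift was not tested.

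Thinned to 11432646 UMIs per mouse, 23577, 23536 and 23458 genes were detected in awake mice 2, 10 and 17, and 24242, 23958, 23998 and 24616 genes in GA mice 4, 11, 15 and 20. All GA mice had more than all awake mice (exact permutation test, two-sided, p = 0.0571, the smallest that 4 against 3 mice allow). All 7097 genes with UMIs but under 0.2 CPM in WT mice were also summed, with no filter on the fAD mice. Their summed level, here in CPM without the TMM factors, was 448, 439 and 368 awake and 587, 498, 498 and 695 under GA, also without overlap. In WT mice the number of genes detected was 23152 to 23960 awake and 23837 to 24238 under GA (exact permutation p = 0.0476), and the summed level of the rare genes was 336 to 499.8 CPM awake and 438 to 568 CPM under GA, with overlap (p = 0.0714, exact permutation test).

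**Figure D3:**
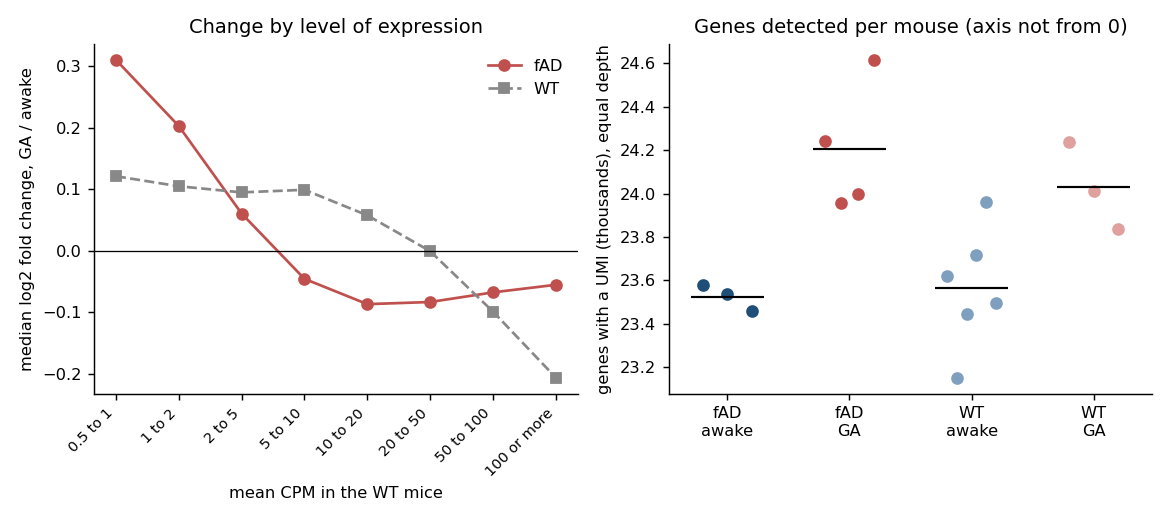
Left, median log2 difference of GA from awake (vertical axis) for genes grouped by their mean level in WT mice (CPM, horizontal axis) in fAD and WT mice, from 0.31 in fAD at 0.5 to 1 CPM to below 0 above 5 CPM. The WT medians run from 0.12 at 0.5 to 1 CPM to below 0 only above 20 CPM. Right, genes detected per mouse at an equal total of 11432646 UMIs (vertical axis not from 0), where the 4 fAD-GA mice lie above the 3 fAD-Awake mice.

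The markers of cell types were set beside these results because the sums move with the mix of cells. Of the 17 marker lists, 15 had overlapping summed levels. The 5 markers of oligodendrocyte precursors summed to 263, 266 and 285 CPM awake and to 208, 182, 202 and 183 CPM under GA, and those of Cajal-Retzius cells to 18.4, 19.6 and 24.1 CPM awake and 11.3, 14.2, 16.3 and 13.9 CPM under GA (exact permutation p = 0.0571 for each, the smallest possible). The 6 inhibitory neuron markers, Dlx6os1 among them, summed to 974, 1002 and 781 CPM awake and 786, 703, 630 and 680 CPM under GA, and all 6 were below 0. Several other lists had all their markers below 0 too, among them those of DG granule, CA1 pyramidal and oligodendrocyte type. Dlx6os1 was the only marker called, and the part of the cell mix in its difference was not tested.

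Nuclei were then clustered and named from markers, leaving called genes and activity genes out of the clustering. The shares of 16 classes did not pass the exact permutation test in any case (smallest p = 0.114, adjusted 0.610), and none could, since 4 against 3 mice allow no p below 0.0571. The CA1-like share was 7.85%, 11.2% and 12.2% in awake mice 2, 10 and 17 and 12.1%, 13.9%, 16.9% and 16.2% in GA mice, and the unnamed share 12.7%, 21.3% and 12.3% against 11.6%, 10.8%, 9.70% and 12.6%. Both shares overlapped between the states. The oligodendrocyte precursor-like share was 3.00%, 1.44% and 3.02% awake and 3.18%, 1.46%, 3.07% and 3.00% under GA. The Cajal-Retzius-like share was 0.438%, 0.320% and 0.386% awake and 0.537%, 0.433%, 0.490% and 0.483% under GA. These shares overlapped too and were not lower on average under GA, although the marker sums of these types were. The reason was not tested. The genes described within classes were chosen after their values were seen. A cluster each of dentate gyrus (DG), oligodendrocyte and CA1 type, of 6142, 4241 and 3175 nuclei, consisted to 88.7%, 92.6% and 81.8% of nuclei of mice 1 to 4. The largest cluster of each type, of 17753, 8635 and 12360 nuclei, held 1.31%, 3.00% and 1.78% from these mice. Mice 1 to 4 thus lay largely in clusters of their own within these types. The part of this in the results below was not tested.

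Activity genes were below 0 in most neuronal classes. The median of the immediate-early list was -1.50 over 10 members in subicular or cortical excitatory-like nuclei, -1.22 over 15 in CA1-like nuclei, -0.95 over 13 in CA3-like nuclei, -0.95 over 8 in inhibitory-like nuclei and -0.59 over 14 in DG granule-like nuclei. Of these members, 6, 6, 6, 4 and 0 had all GA mice below all awake mice, beside backgrounds of 4.75%, 4.29%, 3.34%, 3.23% and 3.34%. In astrocyte-like and oligodendrocyte-like nuclei the medians were -0.69 and -0.48, with 1 member each below without overlap (backgrounds 4.18% and 4%). Differences between classes were not tested.

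In subicular or cortical excitatory-like nuclei, 24 genes (0.255% of 9394 tested) were higher and 14 (0.149%) lower under GA. Etv5 was at 145, 131 and 178 CPM of that class awake and at 16.9, 32.3, 35.5 and 47.1 CPM under GA. All GA mice were far below all awake mice (-2.24 ± 0.31, adjusted p = 0.00614), and the call held with each fAD mouse left out and without mice 11, 17 and 20 (adjusted p = 0.0254). Arc had 36, 19 and 7 UMIs in awake mice 2, 10 and 17, and 5, 0, 0 and 0 UMIs in GA mice 4, 11, 15 and 20 (adjusted p = 0.0199).

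Homer1, at 320, 556 and 432 CPM awake and 75.6, 120, 77.5 and 91.9 CPM under GA (-2.28 ± 0.47, adjusted p = 0.0465), and Bdnf, at 41.8, 31.6 and 45.3 CPM awake and 6.96, 6.46, 9.69 and 13.4 CPM under GA (-2.09 ± 0.38, adjusted p = 0.0199), were called here though not over the whole hippocampus. The states were separated in both, but Homer1 passed with none of the 7 fAD mice left out in turn (adjusted p up to 0.21) and Bdnf with 3 (up to 0.144). Egr1 had 16, 31 and 6 UMIs awake and 5, 1, 1 and 0 UMIs under GA (adjusted p = 0.0465), and likewise passed with none of the mice left out (up to 0.278). Pcsk1 (-2.10, adjusted p = 0.0465), Ntrk2, the receptor of Bdnf (-0.88, 0.0345), and Gabra4, a GABA-A receptor subunit (-1.12, 0.0482), were lower as well, while Lyn, a Src-family kinase, was higher (1.27, 0.0345). Of the genes named here, Etv5 alone passed without mice 11 and 17 (adjusted p = 0.0308), the others having 0.0528 (Ntrk2) to 0.0922 (Homer1). Pcsk1, Ntrk2, Gabra4 and Lyn passed with 1 or 2 of the 7 mice left out, and Arc with 3. Without mouse 2 or mouse 10 only 1 of the 38 calls of this class was counted.

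In CA1-like nuclei, 42 genes (0.312% of 13448) were higher and 18 (0.134%) lower. Mast3, a microtubule-associated kinase, was at 245, 172 and 227 CPM awake and 70.9, 96.0, 69.5 and 51.2 CPM under GA (-1.58 ± 0.19, adjusted p = 0.00243). Bhlhe40, a transcriptional repressor linked to the clock, was at 35.9, 33.3 and 31.3 CPM awake and 8.18, 8.32, 12.5 and 7.20 CPM under GA (-1.88 ± 0.25, adjusted p = 0.00464). The states were apart in both genes, and both passed with each fAD mouse left out. Without mice 11, 17 and 20, Mast3 passed (adjusted p = 0.0202) and Bhlhe40 did not (0.108). Arc was at 34.9, 17.4 and 14.0 CPM awake and 2.27, 4.54, 2.92 and 1.87 CPM under GA (-2.94 ± 0.39, adjusted p = 0.00464). It passed with each fAD mouse left out and without mice 11, 17 and 20 (adjusted p = 0.0202). Npas4, Egr4 and Dusp5 were also called (adjusted p = 0.0349, 0.0477 and 0.0353), and passed with 1, 0 and 2 of the 7 fAD mice left out. The number of calls in the class was 3 without mouse 2 or 10 and 57 without mouse 11. Mast3 had differences of -1.09 in CA3-like, -0.64 in DG granule-like and -1.15 in subicular or cortical excitatory-like nuclei, and of 0.83 and 0.55 in astrocyte-like and oligodendrocyte-like nuclei, none of which passed, although with the block the CA3-like difference did (adjusted p = 0.0142). Over the whole hippocampus its values overlapped (-0.54, adjusted p = 0.22).

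Inhibitory-like nuclei had 9 genes higher and 9 lower (0.076% of 11840 each). Hcrtr2, an orexin receptor, was at 100, 54.1 and 54.4 CPM awake and 14.0, 19.5, 27.2 and 18.2 CPM under GA (-1.85 ± 0.26, adjusted p = 0.0145). Etv5 was at 45.5, 58.9 and 51.5 CPM awake and 5.93, 4.34, 21.9 and 11.7 CPM under GA (-2.27 ± 0.38, adjusted p = 0.0230). In CA1-like nuclei Etv5 overlapped between the states (-0.46, adjusted p = 0.811). Hcrtr2 and Etv5 did not overlap within the inhibitory-like class, where Etv5 passed with 1 of the 7 fAD mice left out and not with any of the others, nor without mice 11 and 17 (adjusted p = 0.0846). Hcrtr2 passed with 3 of the 7 left out and without mice 11 and 17 (adjusted p = 0.0276), but not without mice 11, 17 and 20 (0.121). Dlx6os1 within this class was at 452, 383 and 498 CPM awake and 144, 217, 251 and 209 CPM under GA (-1.12 ± 0.24, adjusted p = 0.0918), which did not pass without the block and passed with it (adjusted p = 0.0014), and the states did not overlap. The class had 0 calls without mouse 2, 4 or 20, 1 without mouse 10 or 11, 5 without mouse 17 and 9 without mouse 15.

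In astrocyte-like nuclei, 114 genes (0.952% of 11972) were higher and 17 (0.142%) lower, and genes of cholesterol synthesis stood among the higher ones. Astrocytes supply cholesterol to neurons in the adult brain. When sterols run low, the factor SREBP2 raises the enzymes of the pathway and its own brake Insig1. A list of 23 such genes was put together after some of them had been seen among the calls, so its counts describe the choice in part. Of the 23 genes, 22 were above 0, 16 had all GA mice above all awake mice (background 6.95%) and 10 were called, with a median log2 difference of 1.09 beside -0.03 over all genes of the class. The median was 1.38 with 9 calls without mice 11 and 17, and 1.37 with 6 calls without mice 11, 17 and 20. Over all genes of the class, the number of calls was 4 without mouse 10, 30 to 69 without mouse 2, 4, 15, 17 or 20, and 222 without mouse 11.

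Insig1 was at 57.4, 66.1 and 60.7 CPM awake and at 215, 169, 212 and 136 CPM under GA, the awake mice being nearly equal (1.57 ± 0.19, adjusted p = 0.00235). It passed with each fAD mouse left out and without mice 11, 17 and 20 (adjusted p = 0.00872). Hsd17b7, which acts late in the pathway, was at 19.6, 19.0 and 22.6 CPM awake and 73.4, 67.7, 67.2 and 63.9 CPM under GA (1.74 ± 0.29, adjusted p = 0.00863). Fdft1, the squalene synthase, was at 96.6, 96.6 and 97.7 CPM awake and 272, 184, 225 and 254 CPM under GA (1.27 ± 0.18, adjusted p = 0.00505). In all 3 genes mouse 11 or 20 had the lowest GA value, still above every awake mouse. Lss, the lanosterol synthase, was at 7.83, 19.0 and 18.5 CPM awake and 49.8, 46.5, 46.1 and 58.4 CPM under GA (1.74 ± 0.31, adjusted p = 0.0134). Without mice 11 and 17 all 4 genes passed, and without mouse 20 too, Hsd17b7 (0.0818) and Lss (0.0963) did not.

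Elsewhere in the pathway, Tm7sf2 (1.12), Pmvk and Hmgcs1 (1.39 and 0.93) and the sterol carrier Stard4 (1.87) were also called. Of these, Pmvk (adjusted p = 0.0564) and Hmgcs1 (0.0687) did not pass without mice 11 and 17. Without mice 11, 17 and 20, Pmvk passed (0.0471), and Stard4 (0.0706) and Hmgcs1 (0.114) did not. Stard4, Pmvk and Hmgcs1 each passed with only 1 of the 7 fAD mice left out. Cyp51 (1.06), Dhcr7 (0.96) and Srebf2 (0.48), the gene of SREBP2, were not called. Outside the list, the acetyl-CoA and acetoacetyl-CoA synthetases Acss2 (1.88, adjusted p = 0.0222) and Aacs (2.03, 0.00637) and the fatty acid elongase Elovl6 (0.95, 0.0430) were higher in astrocyte-like nuclei. Without mice 11 and 17, Aacs passed (adjusted p = 0.00713) and Acss2 (0.0687) and Elovl6 (0.148) did not.

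In neurons the sign of the same genes varied with the class. In CA1-like nuclei 18 of 22 were below 0 with a median of -0.52 and 7 without overlap (background 4.29%), in CA3-like nuclei 20 of 21 were below 0 (-0.70, 8 without overlap, background 3.34%), and in subicular or cortical excitatory-like nuclei 15 of 17 (-0.78, 10 without overlap, background 4.75%). Without the block none was called in these classes, while with it 3 were called lower in CA1-like and 3 in CA3-like nuclei. In inhibitory-like nuclei 18 of 21 were below 0 (median -0.26). In DG granule-like nuclei 22 of 23 were above 0 (median 0.29), and in oligodendrocyte-like nuclei 10 of 18 (0.11). Over the whole hippocampus the list had a median of 0.07 and 0 calls. The difference between astrocyte-like and neuronal nuclei was not tested.

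**Figure D4:**
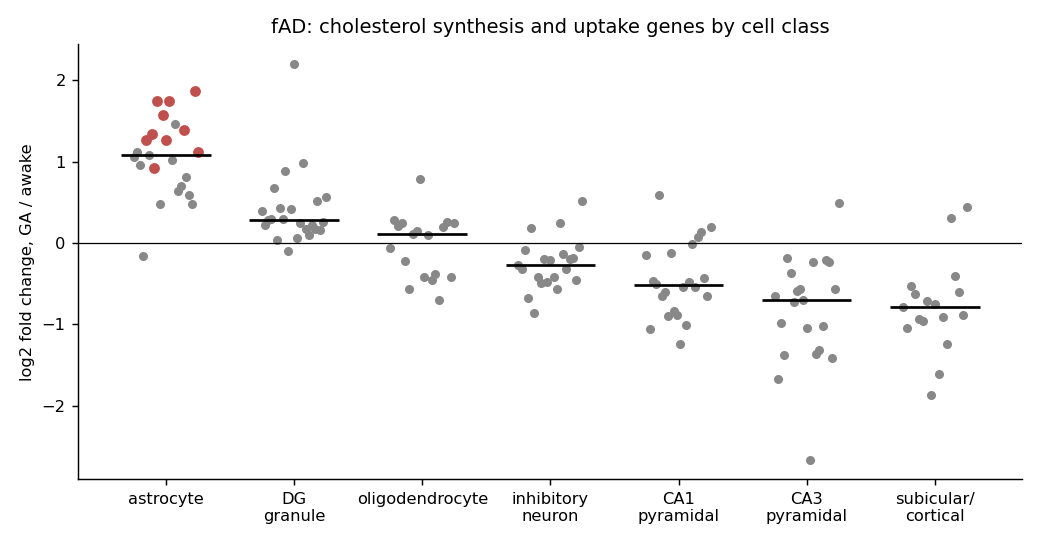
Log2 difference of GA from awake in fAD mice (vertical axis) of each gene of the sterol list by cell class (horizontal axis), red for genes with an adjusted p under 0.05 and a line at the median. The median is 1.09 in astrocyte-like nuclei and -0.52, -0.70 and -0.78 in CA1-like, CA3-like and subicular or cortical excitatory-like nuclei.

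Dbx2, Slco1c1 and Slc7a11 were among the 17 genes lower in astrocyte-like nuclei. Dbx2, a homeobox factor, was at 270, 268 and 380 CPM awake and 130, 147, 136 and 124 CPM under GA (-1.19 ± 0.17, adjusted p = 0.00505, also with each fAD mouse left out). Slco1c1, a thyroid hormone transporter, was at 548, 626 and 482 CPM awake and 282, 312, 298 and 282 CPM under GA (-0.91 ± 0.17, adjusted p = 0.0195). Slc7a11, the cystine-glutamate exchanger, was at 320, 392 and 317 CPM awake and 80.4, 152, 123 and 121 CPM under GA (-1.53 ± 0.31, adjusted p = 0.0243). The values of the GA mice were close to each other in Dbx2 and Slco1c1. Slc7a11 did not pass without mice 11 and 17 (adjusted p = 0.0520), and none of the 3 genes passed without mice 11, 17 and 20 (0.0932 to 0.113).

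Grm3 was at 772, 1196 and 863 CPM awake and at 266, 632, 306 and 291 CPM under GA, where mouse 11 stood above the rest (-1.34 ± 0.30, adjusted p = 0.0399). This call held with 1 of the 7 fAD mice left out (adjusted p up to 0.24). It held without mice 11 and 17 (0.0162) but not without mice 11, 17 and 20 (0.0587). Of the higher genes outside lipid synthesis, Pygm, the glycogen phosphorylase of muscle and astrocytes, was at 9.79, 10.4 and 26.7 CPM awake and 63.8, 30.7, 67.2 and 78.1 CPM under GA (2.00 ± 0.39, adjusted p = 0.0202). Plin4 had 2, 5 and 0 UMIs awake and 18, 11, 20 and 34 UMIs under GA in this class (adjusted p = 0.0218, or 0.0617 without mice 11 and 17).

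**Figure D5:**
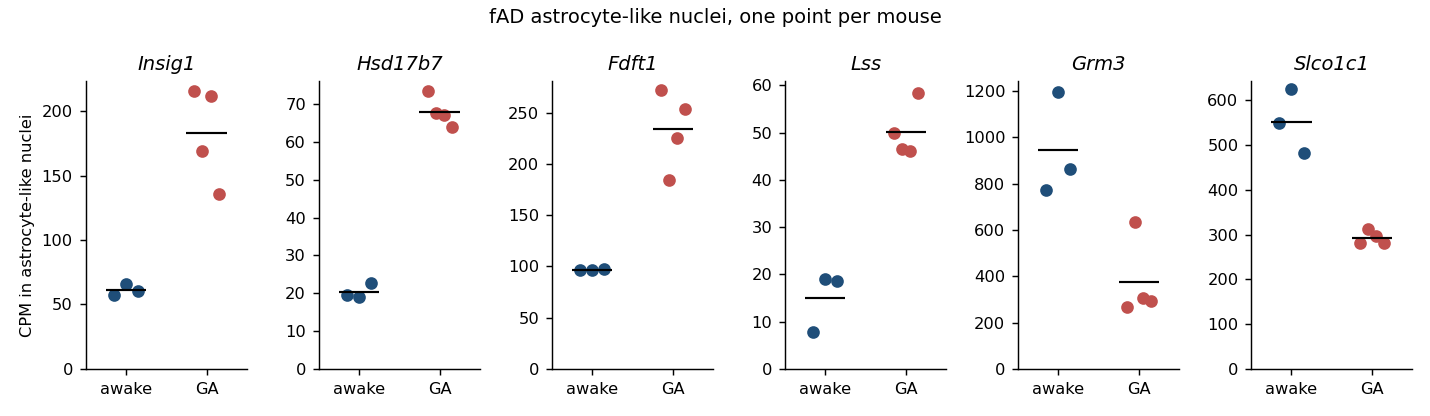
Level in astrocyte-like nuclei (CPM of the class, vertical axes from 0) of Insig1, Hsd17b7, Fdft1, Lss, Grm3 and Slco1c1 in each fAD-Awake and fAD-GA mouse, with a line at each mean. The 4 GA mice lie above the 3 awake mice in the first 4 genes and below them in Grm3 and Slco1c1.

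Oligodendrocyte-like nuclei had 45 genes higher (0.45% of 9991) and 7 lower (0.0701%). Pex5l was at 2227, 2239 and 2451 CPM awake and at 5378, 4831, 4572 and 5164 CPM under GA (1.11 ± 0.18, adjusted p = 0.0189), without overlap. Xpo1, the nuclear export receptor, was at 45.4, 69.9 and 48.6 CPM awake and 298, 162, 208 and 163 CPM under GA (1.96 ± 0.31, adjusted p = 0.0189). P4ha1 was at 217, 122 and 142 CPM awake and 39.0, 43.9, 57.7 and 35.5 CPM under GA (-1.87 ± 0.33, adjusted p = 0.0189). The lineage factor Olig2 was higher (1.72, adjusted p = 0.0203), and the phospholipase gene Pla2g4a (-1.80, 0.0189) and Rnf220, a ubiquitin ligase gene (-1.28, 0.0189), were lower. Without mice 11 and 17, Xpo1, Olig2 and Rnf220 passed (adjusted p = 0.0408, 0.0408 and 0.0457), whereas P4ha1, Pla2g4a and Pex5l did not (0.0523, 0.0636 and 0.0511). Without mice 11, 17 and 20 no gene of this class passed, nor did any without mouse 2 or mouse 10.

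In DG granule-like, microglia-like and oligodendrocyte precursor-like nuclei no gene was called by edgeR without the block, with 1312 of 14539, 174 of 5317 and 430 of 6659 genes at an unadjusted p under 0.05. With the block, 54 genes were called in DG granule-like, 6 in oligodendrocyte precursor-like and 0 in microglia-like nuclei. DG granule-like nuclei had 21 calls without mice 11 and 17. CA3-like nuclei had 1 gene higher (0.00857% of 11663) and 0 lower.

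The same contrast in WT mice, which are other animals, gave 7 genes higher (0.0352%) and 3 lower (0.0151%), and 0 in all without WT mouse 1, 3, 13, 14, 18 or 19. All 58 genes called in fAD had the same sign in WT, and 7 of them were called there. The share of all genes with the same sign in both genotypes was not counted, and scarce genes had WT medians above 0. The median WT log2 difference was 1.06 over the 53 higher genes and -1.49 over the 5 lower genes, beside 0.0024 over all genes. Npas4 had a log2 difference of -2.0 in WT (adjusted p = 0.0275), Dlx6os1 of -1.49 (0.0275), Gm38825 of 1.49 (0.0275), Etv5 of -1.28 (0.0275) and Arc of -1.70 (0.112). The WT medians were -0.59 for the immediate-early list, -0.02 for effectors and -0.48 for ERK output. In astrocyte-like nuclei of WT mice, 23 of 23 genes of the sterol list, which was made with calls in view, were above 0 with a median of 1.27, beside 0.0011 over all genes of the class, and 16 were called higher (background 0.76%).

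The difference of the fAD from the WT response was called for 0 genes by edgeR and 0 by DESeq2, with 475 genes at an unadjusted p under 0.05 in edgeR. Within classes, the adjusted p of this difference was 0.922 to 1.00 for every gene described above. A p that misses the threshold does not show that the responses are equal.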

How the data were processed

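Hippocampal nuclei were profiled by droplet single-nucleus RNA sequencing with 1 library per mouse. The values the authors deposited are raw UMI counts for each gene in each nucleus, made with Cell Ranger 5.0.0 per the submitters' processing notes, with intronic reads counted against a 10x mm10 reference. The methods also name CellBender, which removes ambient RNA, while the file headers name Cell Ranger only, so whether the deposited counts were corrected is not known. The methods describe tissue batches of 4, whose members the labels do not give, and the deposited design text and the labels differ in the number of mice per group, the labels being used.

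UMIs were summed per mouse and tested with edgeR 4.0.16 (R 4.3.3; quasi-likelihood test, TMM, filterByExpr by group, Benjamini-Hochberg threshold 0.05) over 16 mice, that is, all but the 4 ketamine mice, which share 1 estimate of spread (common biological coefficient of variation 0.337, 12 residual degrees of freedom). No source says which mice shared a day. Without the block, the spread that p-values measure is between mice and holds any difference between days or batches. All nuclei of the 16 mice, marked doublets included, were clustered with leidenalg 0.10.2 at resolution 1 into 43 clusters, named from markers. Clusters rich in marked doublets were left unnamed. So were clusters without a class score over the minimum, with under 3 detected markers, or with more top markers of another class. Doublets, scored by simulation, were then left out of class shares and class sums, and class sums were tested in the same way. Classes were kept with at least 50 nuclei in at least 3 mice. Alternatives included DESeq2 1.42.0 and a block for runs of consecutive mouse numbers, taken as a possible stand-in for those batches. Tests were tried on simulated counts. Named genes were the 15 smallest adjusted p in each direction, the called or most abundant list members, and the immediate-early list. Members and lists were chosen with earlier results of these data known. Some members of the sterol list enter its counts and medians but are not reported here singly.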

Additional observations from a re-analysis of the deposited data

Results flagged for a closer look

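Of 161 values examined in the 4 fAD-GA mice, 15 had 1 mouse far from the other 3 by Dixon's ratio, a test that chance alone meets in about 1 in 20 groups. Mouse 11 stood apart with Prag1 at 13.7 CPM (others 15.9 to 16.2), Grm3 at 163.0 CPM (142 to 145), Grm3 in astrocyte-like nuclei at 632 CPM (266 to 306), Egr4 in CA1-like nuclei at 2.27 CPM (2.92 to 2.95) and Fos in CA1-like nuclei at 3.78 CPM (0.265 to 0.455). The same mouse had choroid plexus-like nuclei at 1.39% (others 0) and oligodendrocyte precursor-like nuclei at 1.46% (3.00 to 3.18). Mouse 4 stood apart with Ier2 at 5.55 CPM (1.37 to 1.60), Maff at 4.76 CPM (1.05 to 1.28), Spred1 at 42.7 CPM (75.2 to 80.4), Gm41409 at 11.3 CPM (6.52 to 7.21), Arc in subicular or cortical excitatory-like nuclei at 4.97 CPM (others 0) and mitochondrial UMIs at 0.939% (0.0437 to 0.0916). Mouse 15 stood apart with Hsd17b12 in inhibitory-like nuclei at 48.1 CPM (26.0 to 27.5) and Sik1 in astrocyte-like nuclei at 4.98 CPM (2.11 to 2.37).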

How the results depend on the processing

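No paired analysis was possible because the labels give no replicate number or batch that mice of different groups share. The methods state that tissue was handled in batches of 4 that included every group, but not which mice formed a batch. A blocked fit was therefore run on consecutive mouse numbers, of which the runs 1 to 4 and 14 to 17 contain all 4 awake and GA groups, while the remaining runs lack some. The mitochondrial share of mice 1 to 4 lay above that of the others, and whether they formed a batch is not known. The 58 fAD calls became 533 with DESeq2, 30 with at least 500 genes per nucleus, 22 with no gene filter, 28 after thinning to equal totals, 247 with the number block, 174 with the block and without mice 11 and 17, 96 without mice 11 and 17, 2 without mice 11, 17 and 20, and 0 without mice 1 to 4 or with the 7 fAD mice alone (1774 genes then at an unadjusted p under 0.05). Leaving out 1 mouse gave 0 to 86. The 10 WT calls became 361, 6 (no filter), 75 (block), 32 (block, without mice 11 and 17), 1 (thinned) and 0 without mice 1 to 4, without mice 11 and 17, or without mice 11, 17 and 20, and 0 to 28 without 1 mouse. The test of the difference between genotypes gave 0 to 0. RLE scaling and leaving out doublets or mitochondrial genes kept both counts within 1.5 times. The cause of these shifts was not tested.

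Class counts under the block, without mice 11 and 17, and without mice 11, 17 and 20 were 346, 36 and 6 in CA1-like nuclei (3 to 57 without 1 mouse), 21, 0 and 0 in CA3-like (0 to 5), 54, 21 and 9 in DG granule-like (0 to 23), 369, 70 and 18 in astrocyte-like (4 to 222), 140, 11 and 0 in inhibitory-like (0 to 9), 265, 30 and 0 in oligodendrocyte-like (0 to 93) and 118, 19 and 8 in subicular or cortical excitatory-like nuclei (1 to 26). Oligodendrocyte precursor-like nuclei had 6 with the block (0 to 2 without 1 mouse) and microglia-like nuclei 0 to 0.

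Genes whose sign turned were not called, and their values are given to 3 digits with the range without 1 mouse. Atf3 (-0.192 to 0.736) was at -0.253 and Maff at -0.186 without mice 1 to 4. Bdnf (-0.491 to 0.0168) was at 0.0395 without mice 11 and 17 and 0.167 without mouse 20 too. Crem (-0.100 to 0.113) was at 0.000725 with at least 500 genes, 0.0368 with the block and 0.0510 when thinned. Jund was at 0.0646 without mice 11, 17 and 20, and Klf4 (-1.25 to 1.38) at 0.135 with the block and 0.458 with the block and without mice 11 and 17. Jun was at -0.513 to 0.0364 and Fos in astrocyte-like nuclei at -1.60 to 0.311 without 1 mouse.

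Differences in share of nuclei (GA minus awake, percentage points) turned for astrocyte-like nuclei (1.34) and inhibitory-like nuclei (-0.895) at Leiden resolution 2, and for microglia-like (0.329) and oligodendrocyte-like nuclei (0.625) without mice 11 and 17. Without 1 mouse they were 3.12 to 5.30 for CA1-like, 0.308 to 1.73 for CA3-like, 0.0735 to 0.133 for Cajal-Retzius-like, -0.667 to 9.14 for DG granule-like, -2.72 to 1.16 for astrocyte-like, -1.44 to -0.520 for choroid plexus-like, -1.38 to 0.189 for endothelial-like, -0.159 to 0.00392 for ependymal-like, -2.79 to -0.484 for fibroblast-like, -0.180 to 0.721 for inhibitory-like, -0.965 to 0.990 for microglia-like, -4.27 to 1.99 for oligodendrocyte-like, -0.334 to 0.597 for oligodendrocyte precursor-like, -0.253 to -0.0148 for pericyte-like, -1.18 to 0.299 for subicular or cortical excitatory-like and -5.81 to -1.32 for unnamed nuclei. The fAD-to-WT log2 difference was 0.80 to 1.35 for Prnp and 0.08 to 0.16 for App.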
